A study of Mus musculus with 3 samples.

Results

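*Lpl*, *Apoe*, *Fabp4*, *Fabp5*, *Gpnmb*, *Pltp*, *Olr1*, *Pparg* and *Nr1h3* were chosen by name as genes of lipid handling, 9 of the 14148 genes in the count tables, and each was followed over macrophage (Mφ) states, other cell types and time. The cells were CD45+ cells sorted from the muscularis of the small intestine of wild-type C57BL/6J mice, female and 12 weeks old. 1 library came from naïve mice, 1 from mice at 24 h and 1 at 72 h after intestinal manipulation (IM), a surgical handling of the bowel that inflames its muscle layer, and all mice shared the WT genotype and strain. The cells of 3 to 4 mice went into each library. With 1 library a group there are no replicates and no test between groups, and a difference between time points cannot be told apart from one between libraries.

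Macrophages take up lipoproteins and dead cells, split the lipids they carry, bind the fatty acids, and either store the lipids in droplets or hand the cholesterol to apolipoproteins for export. Lipoprotein lipase frees fatty acids from triglycerides outside the cell, FABP4 and FABP5 carry fatty acids inside it, and apolipoprotein E and the phospholipid transfer protein accept and move lipids outside. The ligand-activated receptors PPARγ, for fatty acids, and LXRα, for oxysterols, are known to switch on many of these genes.

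The libraries held 652 naïve, 2211 24 h and 1239 72 h cells with medians of 2134.5, 4669 and 3295 UMIs per cell, and each pair of libraries shared 1 cell barcode. *Ptprc*, the gene for CD45, had a UMI in 58.4 to 64.1% of the cells of a library. Expression is given in CPM, the gene's share of all UMIs summed over a group of cells on the usual scale, with an exact Poisson 95% interval, and a ratio of CPM carries an exact conditional Poisson 95% interval. The intervals reflect counting error alone and leave out variation between cells and between mice. UMIs were counted at transcript 3′ ends and not scaled by gene length, so levels are compared between groups of cells and not between genes. Cells were grouped without any of the lipid genes, so that none of them was itself used to form or name a group. 16 clusters gave 2261 monocyte/Mφ-like cells (140 naïve, 1548 at 24 h and 573 at 72 h) and neutrophil-, T cell-, B cell- and dendritic cell (DC)-like cells. A cluster of 243 cells led by *Ptgs2* and *Siglecf* is called cluster 8. B cell-like cells, which should lack most of these transcripts, serve as the level that free RNA in the droplets can give.

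Clustered again, monocyte/Mφ-like cells formed 10 states, of which 7 held the markers of a subset and are named after it, and 3 are given by their number. State 2, led by *Ltc4s*, *Tppp3* and *Klk8*, passed too few markers of any subset, state 5 had low UMI counts (median 2063 per cell), and state 9, of 50 cells, was led by the B cell genes *Cd79a* and *Ebf1*. Immunoglobulin genes were among the leading genes of the Spp1+ (*Igha*, *Jchain*) and Cx3cr1+ states (*Igkc*, *Jchain*). Naïve cells were mostly Cx3cr1+ (70 of 140) and Cd206+ (29). At 24 h they were mostly Spp1+ (430 of 1548), Ly6c+ (314), state 2 (281), state 5 (238) and Ccr2+ int (209), and at 72 h Cd206+ (250 of 573), Timp2+ (127) and Ccr2+ int (68). The study named a 24 h subset after *Fabp5*, which was not used as a marker here. The Spp1+ markers did include *Lgals1*, *Ccl7*, *Flt1*, *Hmox1* and *Prdx1*, which the study gave for that subset. High *Fabp5* in Spp1+ cells is therefore not independent of how the state was named.

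All 9 genes are protein-coding. Promoter windows from RefSeq were matched for 6 of the 9, and the 250 bases before the start of transcription are shown for 3 of them on GRCm38.p6. *Apoe* and *Pltp* are shown because their levels moved together over the libraries, and *Olr1* because neutrophil-like cells and cluster 8 were among its highest groups. The windows are chr7:19699189-19699438, chr2:164857709-164857958 and chr6:129507166-129507415, all on the minus strand and written 5′ to 3′. Capitals mark matches on either strand to AGGTCA, a nuclear receptor half-site, TGANTCA, the AP-1 motif, GAGGAA, a core of the PU.1 motif, CACGTG, an E-box, and TATAAA.
Apoe: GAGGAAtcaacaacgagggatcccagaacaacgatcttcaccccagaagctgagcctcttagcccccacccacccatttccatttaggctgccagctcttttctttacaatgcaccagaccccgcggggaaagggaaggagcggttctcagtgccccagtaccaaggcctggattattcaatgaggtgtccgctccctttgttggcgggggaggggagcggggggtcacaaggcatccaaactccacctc
Pltp: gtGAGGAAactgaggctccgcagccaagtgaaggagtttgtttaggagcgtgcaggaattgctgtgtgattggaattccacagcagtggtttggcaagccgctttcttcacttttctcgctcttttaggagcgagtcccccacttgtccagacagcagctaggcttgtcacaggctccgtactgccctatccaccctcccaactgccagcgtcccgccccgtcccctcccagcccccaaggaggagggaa
Olr1: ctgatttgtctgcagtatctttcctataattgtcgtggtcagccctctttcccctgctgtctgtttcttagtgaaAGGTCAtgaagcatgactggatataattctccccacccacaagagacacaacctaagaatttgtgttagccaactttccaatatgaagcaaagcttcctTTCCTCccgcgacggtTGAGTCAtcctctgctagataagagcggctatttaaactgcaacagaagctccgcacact
GAGGAA began 250 bases before the *Apoe* start and 248 bases before the *Pltp* start, and it was the match they shared. It was in 23.3% of all 32851 promoter windows of this length. The *Olr1* window held AGGTCA 175 bases, GAGGAA (as TTCCTC) 76 bases and TGANTCA (as TGAGTCA) 60 bases before the start, motifs found in 14.0, 23.3 and 6.75% of the windows, and no matches overlapped. CACGTG (6.02% of windows) and TATAAA (12.4%) were in none of the 3.

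Between the naïve and the 24 h library, the monocyte/Mφ-like cells exchanged one set of these genes for another. *Lpl*, *Fabp5* and *Gpnmb* were each about an order of magnitude higher at 24 h, while *Apoe* and *Pltp* were more than 6-fold lower. By 72 h *Apoe* and *Pltp* were again near or above their naïve level, and *Lpl*, *Fabp5* and *Gpnmb* lay between the 24 h and the naïve levels. Of the 5 members with at least 50 CPM in either library, 3 were at least 2-fold higher at 24 h and 2 at least 2-fold lower, against 11.5% and 8.41% of all 2818 genes with that level. From 24 h to 72 h, 2 of 5 members were at least 2-fold higher and 3 at least 2-fold lower, against 3.70% and 4.81% of 2700 genes. At 72 h against naïve, 1 of 4 was at least 2-fold higher and 0 lower, against 2.23% and 4.01% of 2643 genes. Because 24 h stands in 2 of these comparisons and naïve in 2, they are not independent. The members were chosen with earlier results of these data known. Here and below, their counts beside the shares over all genes are therefore a description and no test. A gene with 50 CPM in only 1 of the groups compared could pass 2-fold in only 1 direction, among members as among all genes. The states that made up the class differed between the libraries as given above, so these ratios can hold both a change of states and a change within them. No state had at least 20 cells in both the naïve and the 24 h library, so a change within a state could not be measured between these.

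**Figure D1:**
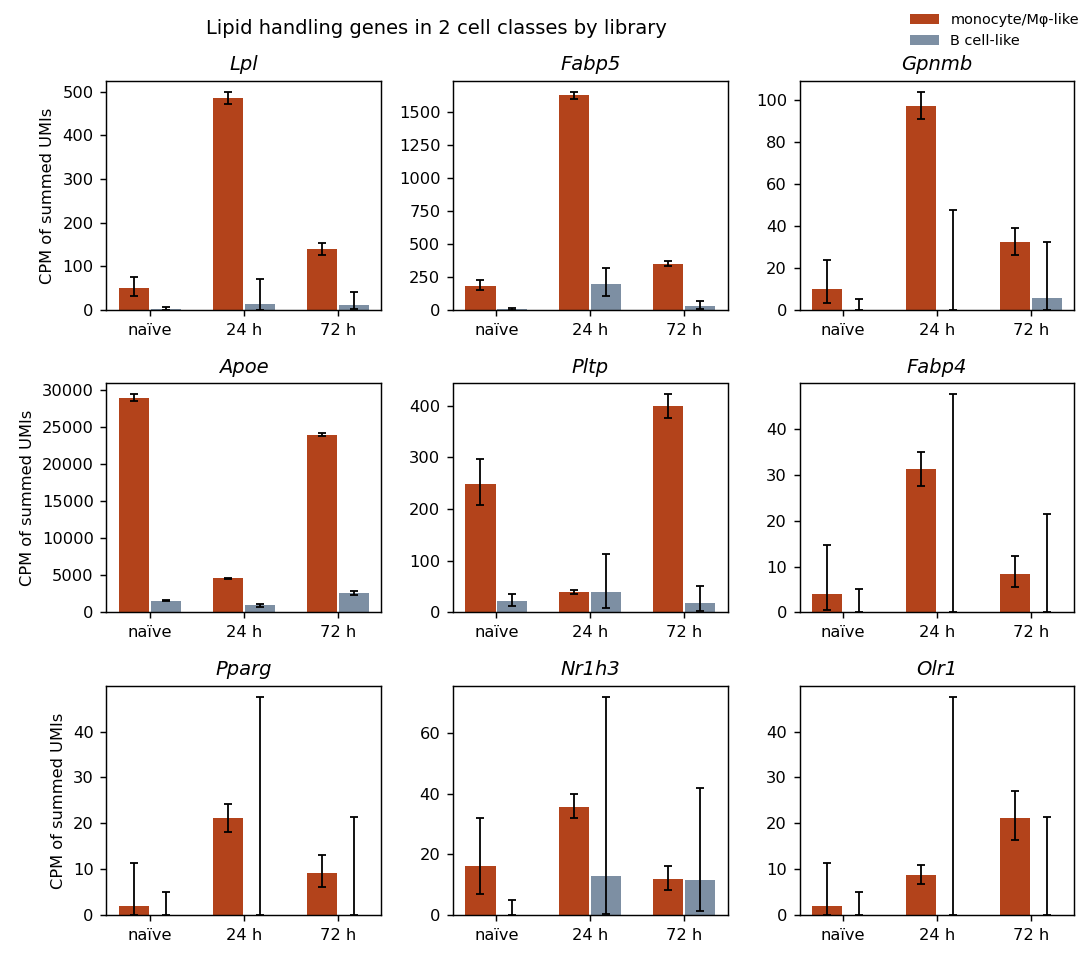
CPM of summed UMIs of each gene (y axis, a linear scale of its own in each panel) in monocyte/Mφ-like (red) and B cell-like cells (grey) of the 3 libraries (x axis), as bars with exact Poisson 95% intervals as whiskers. Lpl, Fabp5 and Gpnmb stand highest at 24 h, at 485, 1629 and 97.2 CPM in monocyte/Mφ-like cells, and Apoe and Pltp lowest there, at 4621 and 39.0 CPM.

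*Lpl* encodes lipoprotein lipase, which splits the triglycerides of lipoproteins (chromosome 8, 68880491 to 68907448, plus strand). In monocyte/Mφ-like cells it was at 50.6 CPM naïve (95% interval 32.7 to 74.7), 485 CPM at 24 h (471 to 499.8) and 139.7 CPM at 72 h (127 to 153.5). The 24 h level was 9.59-fold the naïve one (95% interval 6.49 to 14.8), and the 3 intervals did not overlap. B cell-like cells had 1 UMI, 1 UMI and 2 UMIs of it. A UMI was found in 6.43% of naïve, 58.8% of 24 h and 26.7% of 72 h monocyte/Mφ-like cells, against 1 of 268, 1 of 34 and 1 of 50 B cell-like cells. Median depths were 3310, 5940.5 and 5320 UMIs in the former and 1819.5, 1653.5 and 2148.5 in the latter. With every cell thinned to 1000 UMIs, which left 135, 1531 and 557 monocyte/Mφ-like cells, the shares were 2.96, 28.3 and 10.4%, in the same order.

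At 24 h *Lpl* was spread over the states rather than held by 1 of them. Arg1+ cells had 725 CPM (95% interval 620 to 843) and Spp1+ cells 712 CPM (683 to 743), which could not be told apart, followed by state 5 with 481.5 CPM, Ly6c+ cells with 417 CPM, state 2 with 319 CPM and Ccr2+ int cells with 256 CPM. Spp1+ cells carried 48.9% of the *Lpl* UMIs of that library with 29.2% of all its UMIs. In the naïve library the gene had 6 UMIs in Cx3cr1+ cells (27.7 CPM) and 6 in Cd206+ cells (60.9 CPM), while the 13 Timp2+ cells held 8 of the library's 30 UMIs with 3.09% of all its UMIs. At 72 h it was at 176 CPM in Timp2+ cells and 58.7 CPM in Cd206+ cells.

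*Fabp5* encodes the epidermal fatty acid-binding protein (chromosome 3, 10012548 to 10016607, plus strand). Its level in monocyte/Mφ-like cells was 184 CPM naïve (95% interval 148 to 226), 1629 CPM at 24 h (1602 to 1655) and 352 CPM at 72 h (331.5 to 374), 8.84-fold higher at 24 h than naïve (95% interval 7.20 to 11.0). In B cell-like cells it was at 4.08 CPM naïve (3 UMIs), 194 CPM at 24 h (15 UMIs) and 29.0 CPM at 72 h (5 UMIs), so the level that free RNA can give was also highest at 24 h, and it stayed well under the monocyte/Mφ-like level in each library. At 1000 UMIs per cell, 5.93, 43.6 and 19.7% of monocyte/Mφ-like cells had a UMI, against 0.392, 12.5 and 2.04% of B cell-like cells.

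One state held most of it. Spp1+ cells at 24 h were at 3653 CPM (95% interval 3585 to 3721) and carried 72.1% of the *Fabp5* UMIs of their library. At clustering resolution 1.2, cells named Spp1+ carried 42.0% of these UMIs, and a cluster of 217 cells with *Fabp5* among its leading genes stayed unnamed. The next level was state 5 with 1474 CPM, and Arg1+ cells (954 CPM), state 9 (844 CPM), DC-like cells at 24 h (796 CPM) and naïve Cd206+ cells (761 CPM) could each not be told apart from the next in this order. Neutrophil-like cells at 24 h had 487.5 CPM (422 to 560.4), also above the B cell-like cells of that library. The naïve library showed a contrast between its 2 main states. The Cd206+ state, 29 cells in all, had 75 UMIs. The Cx3cr1+ state, 70 cells in all, had 1 UMI, 4.61 CPM (95% interval 0.117 to 25.7). In the single cells of the Spp1+ state the 10th, 50th and 90th percentiles were 220, 2056 and 10045 CPM.

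*Fabp4* encodes the fatty acid-binding protein of adipocytes and macrophages (chromosome 3, 10204088 to 10208576, minus strand). It was scarce, with 2 UMIs in naïve, 282 in 24 h and 26 in 72 h monocyte/Mφ-like cells, or 4.05, 31.2 and 8.46 CPM, and B cell-like cells had none in any library. Spp1+ cells at 24 h (78.6 CPM, 95% interval 69.0 to 89.1) carried 242 of the 287 UMIs of that library, and Timp2+ cells at 72 h (29.7 CPM, 17.6 to 46.9) 18 of 28. These were the top 2 of 28 groups, and the interval of their ratio lay above 1. In the Spp1+ state only a part of the cells held it, 64 of 430, with up to 28 UMIs in a cell.

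*Lpl* and *Fabp4* are also known from adipocytes, and *Fabp4* from endothelial cells. Of 5 adipocyte markers 1 was measured, *Plin1*, with 1, 4 and 3 UMIs in naïve, 24 h and 72 h monocyte/Mφ-like cells, or 2.02, 0.443 and 0.977 CPM, and it was at 0 in Spp1+ cells at 24 h. The 4 measured endothelial markers summed to 20.2, 19.9 and 22.8 CPM, mostly *Pecam1*, with *Cdh5* at 0 in the naïve and 72 h cells. *Kdr* among them was highest at 24 h (2.02, 4.99 and 1.63 CPM), and at 24 h the sum was 25.7 CPM in Spp1+ cells, with *Kdr* at 8.44 CPM, and 16.6 CPM in Ly6c+ cells, with *Kdr* at 3.80 CPM. Neutrophil markers summed to 56.7, 1061 and 861 CPM in the class, B cell markers to 293.5, 32.5 and 79.4 CPM and plasma cell markers to 1010, 88.2 and 11.4 CPM (mostly *Jchain* in the naïve and 24 h cells), and their part in the results was not tested.

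*Gpnmb* encodes a transmembrane glycoprotein of lysosomes in lipid-laden phagocytes (chromosome 6, 49036546 to 49070929, plus strand). Levels were 10.1 CPM naïve (5 UMIs, 95% interval 3.29 to 23.6), 97.2 CPM at 24 h (90.8 to 104) and 32.2 CPM at 72 h (26.2 to 39.2). The 24 h cells were 9.601-fold above naïve, with a wide interval of 4.10 to 29.6 that follows from 5 UMIs. Spp1+ cells at 24 h had 235 CPM (218 to 253) and 77.4% of the library's *Gpnmb* UMIs, and the gene was at 0 in Cx3cr1+ cells of both the naïve and the 72 h library. Cd206+ cells had 50.7 CPM naïve and 58.7 CPM at 72 h, and all 5 naïve UMIs of the class were in them. Neutrophil-like cells at 24 h ranked second of the 28 groups, with 101 CPM (72.5 to 137) from 41 UMIs in 19 of 411 cells. They could not be told apart from the next group, state 9 at 24 h with 83.8 CPM (44.6 to 143). At 72 h neutrophil-like cells had 0 UMIs in 112 cells. Over all libraries they held 4027 CPM of the summed monocyte/Mφ markers, against 921 CPM in B cell-like cells, next to 79508 CPM of the neutrophil markers.

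*Apoe* encodes apolipoprotein E, the lipoprotein component that accepts exported cholesterol (chromosome 7, 19696109 to 19699188, minus strand). Monocyte/Mφ-like cells had 28963 CPM naïve (95% interval 28490 to 29441), 4621 CPM at 24 h (4577 to 4666) and 23996 CPM at 72 h (23823 to 24170). The naïve level was 6.27 times that at 24 h, and the 72 h level was 5.19-fold above 24 h (5.13 to 5.26). B cell-like cells had 1569, 942 and 2644 CPM and T cell-like cells 486, 509 and 1285 CPM, so at 24 h the class stood far closer to these cells than in the other libraries.

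Among groups of at least 20 cells, the transcript was highest in 2 states in both libraries that held them. Cd206+ cells had 41700 CPM naïve (95% interval 40435 to 42995) and 35926 CPM at 72 h (35604 to 36249), and Cx3cr1+ cells 34993 CPM naïve (34210 to 35789) and 37165 CPM at 72 h (36050 to 38305). No other group of at least 20 cells passed 14225 CPM, the level of Ccr2+ int cells at 72 h, and Timp2+ cells of the same library had 13568 CPM. Among 24 h states the highest was Ccr2+ int with 8345 CPM, against 4593 CPM in Spp1+ and 4138 CPM in Ly6c+ cells. Naïve *Apoe* UMIs were in Cx3cr1+ (47.2%) and Cd206+ cells (25.5%), and at 72 h 59.8% were in Cd206+ cells, which held 25.3% of all UMIs of that library. State 9, with 11 naïve and 17 72 h cells too small for that order, also carried more *Apoe* than its size, with 8.01% of naïve *Apoe* UMIs from 2.86% of all UMIs and 4.34% from 2.27% at 72 h.

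*Pltp* encodes the phospholipid transfer protein, which moves phospholipids between lipoproteins (chromosome 2, 164839518 to 164857711, minus strand). It had 249 CPM naïve (95% interval 207 to 297), 39.0 CPM at 24 h (35.0 to 43.3) and 399 CPM at 72 h (377 to 422), a 10.2-fold difference between the last 2 libraries (9.08 to 11.6). The 24 h level was close to the 38.7 CPM of B cell-like cells in that library, which rest on 3 UMIs (7.98 to 113), while T cell-like cells had 5.30 CPM there. In the naïve and 72 h libraries B cell-like cells had 21.7 and 17.4 CPM. Timp2+ cells at 72 h had the highest level, 741 CPM (674 to 813), above Cd206+ cells naïve (446 CPM) and at 72 h (420 CPM), which could not be told apart. DC-like cells also held it, with 242 CPM naïve, 80.1 CPM at 24 h and 189.7 CPM at 72 h. These were near the monocyte/Mφ-like level in the naïve library, above it at 24 h and below it at 72 h.

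*Olr1* encodes LOX-1, a receptor for oxidized low-density lipoprotein (chromosome 6, 129485244 to 129507165, minus strand). It was rare in the class, with 1, 78 and 65 UMIs or 2.02, 8.64 and 21.2 CPM in naïve, 24 h and 72 h cells. Its highest groups were of several classes. Arg1+ cells at 24 h had 116.5 CPM (27 UMIs in 16 of 48 cells), cluster 8 at 72 h had 70.9 CPM (15 UMIs) and Timp2+ cells at 72 h had 65.9 CPM (40 UMIs), and intervals of neighbouring ratios held 1. Neutrophil-like cells followed with 55.6 CPM at 72 h (8 UMIs) and 32.0 CPM at 24 h (13 UMIs), and were in both libraries above the monocyte/Mφ-like cells, with overlapping intervals at 72 h (24.0 to 110 against 16.3 to 27.0). B cell-like cells had 0 UMIs in each library. Spp1+ cells, the richest in *Fabp5*, had 2.60 CPM of *Olr1* at 24 h.

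*Pparg* and *Nr1h3* encode the nuclear receptors PPARγ and LXRα (chromosome 6, 115360951 to 115490399, plus strand, and chromosome 2, 91184061 to 91202834, minus strand). *Pparg* had 1, 190 and 28 UMIs in naïve, 24 h and 72 h monocyte/Mφ-like cells, or 2.02, 21.1 and 9.12 CPM. Its top group was Spp1+ at 24 h with 35.4 CPM (95% interval 29.1 to 42.7), above the next, Ly6c+ cells with 19.0 CPM. *Nr1h3* had 8, 322 and 36 UMIs, or 16.2, 35.7 and 11.7 CPM. State 2 (65.6 CPM, 52.9 to 80.5), Spp1+ (50.7 CPM) and Arg1+ cells (43.2 CPM) at 24 h led its order, with no interval between neighbours above 1. A gene model on the same strand, *Gm13783*, overlaps *Nr1h3*, and reads of the overlap may not have been counted. B cell-like cells had 0 *Pparg* UMIs in each library, and 0, 1 and 2 of *Nr1h3*.

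**Figure D2:**
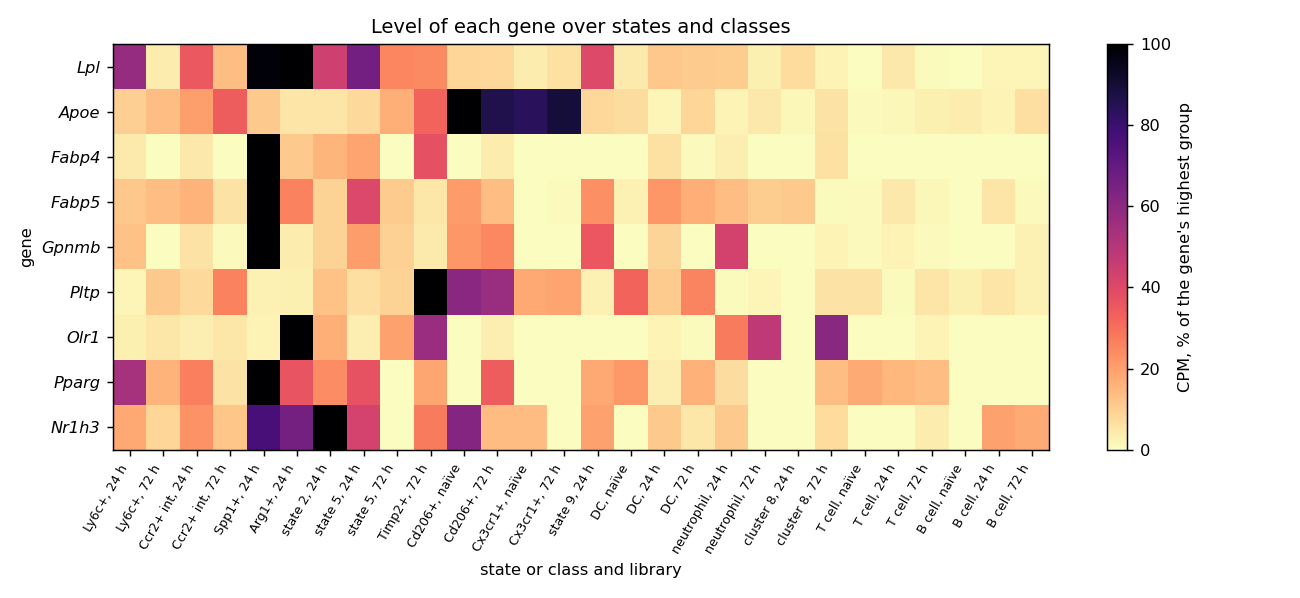
CPM of each gene (rows) in each state or class of at least 20 cells, by library (columns), as a percentage of the gene's highest group (colour scale). Fabp4, Fabp5, Gpnmb and Pparg peak in Spp1+ cells at 24 h, Apoe in Cd206+ and Cx3cr1+ cells, Pltp in Timp2+ cells at 72 h and Olr1 in Arg1+ cells at 24 h.

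Within the 24 h library, Spp1+ cells were set against Ly6c+ cells, the monocyte-like state. *Fabp4* was 23.7-fold higher (95% interval 11.3 to 59.5), *Fabp5* 8.54-fold (7.98 to 9.15), *Gpnmb* 7.99-fold (6.16 to 10.5) and *Nr1h3* 4.27-fold (2.79 to 6.80). *Lpl* differed by 1.71-fold (1.58 to 1.85) and *Apoe* by 1.11-fold (1.08 to 1.14). Of 6 members with at least 50 CPM in either state, 4 were at least 2-fold higher and 0 lower, against 3.27% and 6.02% of 2722 genes. *Fabp4*, *Gpnmb* and *Nr1h3* reached 50 CPM in Spp1+ cells alone. Both states come from 1 library and the same clustering, so these ratios describe the states and are no test.

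At 72 h the 2 main states split the genes between them. Relative to Timp2+ cells, Cd206+ cells had more *Gpnmb* (5.94-fold, 95% interval 2.61 to 16.7), *Fabp5* (2.70-fold, 2.20 to 3.33) and *Apoe* (2.65-fold, 2.59 to 2.71). Timp2+ cells had more *Olr1* (17.5-fold, 40 against 5 UMIs), *Fabp4* (9.85-fold, 18 against 4 UMIs), *Lpl* (3.003-fold) and *Pltp* (1.77-fold). Of 6 members with at least 50 CPM, 3 were at least 2-fold higher in Cd206+ and 2 lower, against 7.01% and 10.9% of 2726 genes. Of these members *Gpnmb* reached 50 CPM in Cd206+ cells alone and *Olr1* in Timp2+ cells alone.

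**Figure D3:**
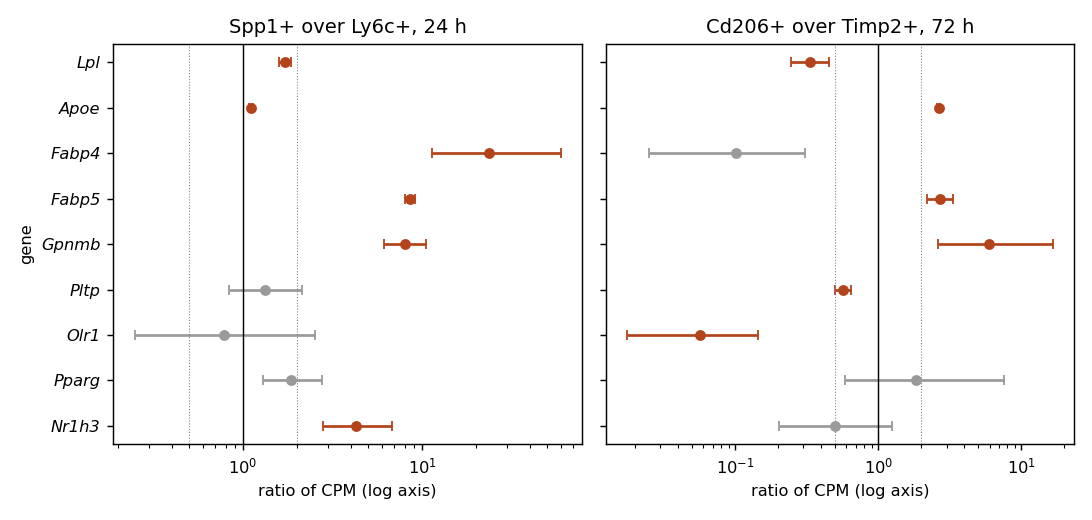
Ratio of CPM (x axis, logarithmic) of each gene (y axis) between Spp1+ and Ly6c+ cells at 24 h (left) and between Cd206+ and Timp2+ cells at 72 h (right), with exact conditional Poisson 95% intervals. Red points have at least 50 CPM in either state, grey points less, and dotted lines mark 2-fold. The left panel reaches 23.7 for Fabp4, and in the right panel Apoe, Fabp5 and Gpnmb lie above 2 and Olr1 and Lpl below 0.5. The grey points of Fabp4 and Nr1h3 also lie below 0.5 in the right panel.

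Some of the change over time was also seen inside a state. In Ccr2+ int cells, 209 at 24 h and 68 at 72 h, *Apoe* was 1.71-fold (95% interval 1.66 to 1.76) and *Pltp* 3.39-fold (2.51 to 4.59) higher at 72 h, and *Lpl* (0.384-fold, 0.280 to 0.517) and *Fabp5* (0.367-fold, 0.297 to 0.448) were lower, the directions of the whole class. In Ly6c+ cells, 314 and 29, *Lpl* was at 0.0668 of its 24 h level (5 against 879 UMIs) and *Pltp* 5.87-fold higher, while *Fabp5* was at 1.15-fold with an interval that held 1 (0.911 to 1.43). *Apoe* was 1.35-fold higher in these Ly6c+ cells (1.27 to 1.44). Between the same libraries *Apoe* was 2.81-fold in B cell-like and 2.53-fold in T cell-like cells, and *Fabp5* 0.150-fold and 0.287-fold. *Pltp* was 0.450-fold in B cell-like (3 against 3 UMIs) and 7.12-fold in T cell-like cells (16 against 1 UMI). The part of free RNA in the ratios within states was not tested. Cd206+ cells were compared between the naïve and 72 h libraries. *Pltp* was at 0.940-fold (0.691 to 1.31), *Lpl* at 0.964-fold (0.423 to 2.71), *Apoe* at 0.862-fold (0.834 to 0.890) and *Fabp5* at 0.642-fold (0.505 to 0.826) of naïve. *Nr1h3* was at 0.222-fold, from 12 against 4 UMIs (0.0674 to 0.946).

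**Figure D4:**
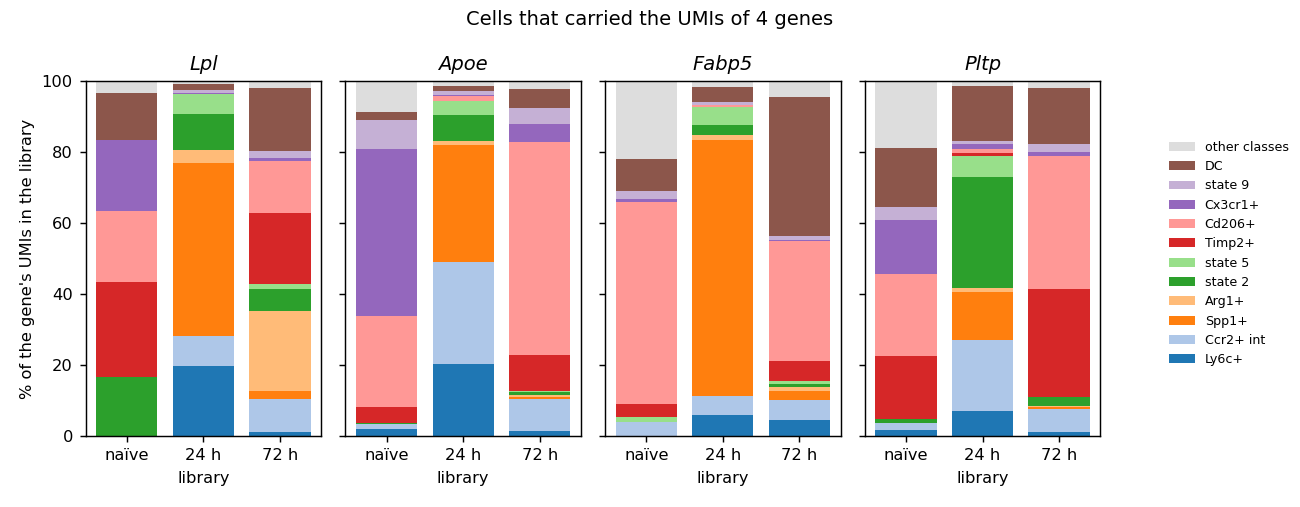
Percentage of the UMIs of Lpl, Apoe, Fabp5 and Pltp in each library (y axis; x axis, library) that came from each monocyte/Mφ-like state, from DC-like cells and from all other classes. At 24 h Spp1+ cells gave 72.1% of Fabp5 and 48.9% of Lpl, and at 72 h Cd206+ cells gave 59.8% of Apoe and 37.5% of Pltp.

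In DC-like cells *Fabp5* was at 90.8 CPM naïve (12 UMIs in 29 cells), 796 CPM at 24 h and 617 CPM at 72 h, so it stayed high at 72 h, when DC-like cells carried 39.3% of the library's *Fabp5* UMIs. *Apoe* was at 2860, 725 and 3562 CPM, at 24 h below the 942 CPM of B cell-like cells, whose 1569 and 2644 CPM in the other libraries had the same order, and *Lpl* at 30.3, 82.5 and 78.5 CPM. These cells also held 5817 CPM of the summed monocyte/Mφ markers, next to 1383 CPM of the DC markers.

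At 1000 UMIs per cell, 357 of 430 Spp1+ cells (83.0%) had a UMI of at least 2 of the 9 genes, and 175 (40.7%) of at least 3, against 138 (43.9%) and 32 (10.2%) of 314 Ly6c+ cells. *Apoe*, which had a UMI in 46.9% of the B cell-like cells of that library at this depth, was in 404 of these Spp1+ and 272 of these Ly6c+ cells. Inside the Spp1+ state, 37.5% of the 24 cells with a *Fabp4* UMI also had one of *Gpnmb* (95% interval 18.8 to 59.4), against 15.3% of the other 406 (11.9 to 19.1). For *Fabp5* and *Gpnmb* the shares were 20.4% of 313 cells with *Fabp5* and 5.98% of 117 without. Cells with and without *Lpl* had *Fabp5* at nearly equal rates, 74.0 and 72.0%.

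The other genes of lipid handling, with genes of lysosomes among them, numbered 66 measured of 69 listed. From naïve to 24 h, 26 had at least 50 CPM, 6 of these were at least 2-fold higher and 1 lower, against 11.5% and 8.41% of all genes at that level, with a median log2 ratio of 0.50 against 0.23 over all genes. The higher ones were *Plin2*, the coat protein of lipid droplets (5.11-fold), the lysosomal proteases *Ctsl* (3.29-fold) and *Ctsd* (2.46-fold), the scavenger receptor *Msr1* (2.999-fold), the cholesterol exporter *Abcg1* (2.80-fold) and *Acaa2*, a thiolase of fatty acid oxidation (2.11-fold). *Acsl1*, which activates long-chain fatty acids, was at 0.248 of its naïve level. At 72 h against 24 h, 1 of 25 was higher, the exporter *Abca1* (2.08-fold), and 2 lower, the fatty acid receptor *Cd36* (0.454-fold) and *Plin2* (0.413-fold), with a median log2 ratio of -0.41 against -0.18 over all genes, of which 3.70% were higher and 4.81% lower. At 72 h against naïve, 1 of 24 was higher, *Plin2* (2.11-fold), and 2 lower, *Acsl1* (0.345-fold) and *Cd36* (0.379-fold). Over all genes 2.23% were higher and 4.01% lower, and counts of 1 and 2 are too small to set apart from these shares. The median log2 ratio was 0.26 against 0.06 over all genes. None of the 11 genes of sterol and fatty acid synthesis reached 50 CPM in any of these comparisons.

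Between Spp1+ and Ly6c+ cells, 9 of 27 were at least 2-fold higher and 0 lower, against 3.27% and 6.02% of all genes at that level, with a median log2 ratio of 0.40 against -0.03 over all genes. They were *Cd36* (7.98-fold), *Hilpda*, an inhibitor of droplet lipolysis (3.45-fold), *Abca1* (3.06-fold), the lipid receptor *Trem2* (2.55-fold), the lysosomal cholesterol transporter *Npc1* (2.04-fold) and the lysosomal proteases *Ctsb* (2.46-fold), *Ctsl* (2.29-fold), *Lgmn* (2.12-fold) and *Ctsd* (2.08-fold). By list, with members counted, 5 of 8 genes of lysosomes were higher, 3 of 6 of intracellular lipid binding and 2 of 4 uptake receptors. Efflux had 1 of 2, storage 1 of 4 and nuclear receptors 1 of 1, the member *Nr1h3* (50.7 against 11.9 CPM). Members already given above are counted again here, so the lists are not independent of them. Lipolysis (0 of 2), lipoproteins and transfer (0 of 2) and fatty acid oxidation (0 of 4) had none, so the excess did not run through all lists. Between Cd206+ and Timp2+ cells at 72 h, 2 of 27 were higher, *Lgmn* (2.27-fold) and *Apobec1* (2.01-fold), and 5 lower, against 7.01% and 10.9% of all genes, so that the higher ones were no more frequent than over all genes. The median log2 ratio was -0.24 against -0.15 over all genes. *Cd5l*, a secreted scavenger receptor protein of macrophages, had 2 UMIs in Cd206+ and 103 in Timp2+ cells, a ratio of 0.00887 (95% interval 0.00106 to 0.0329). *Cd36* (0.244-fold), *Abcg1* (0.432-fold) and *Cpt1a*, the entry enzyme of mitochondrial fatty acid oxidation (0.481-fold), were also lower in Cd206+ cells.

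Over the 28 groups of at least 20 cells, the genes most like each member by Pearson's r of log2(CPM + 10) were found among 6565 genes. The groups share libraries and depth, and r is a description only. *Lpl* was most like *Ccl24* (r = 0.956), *Ccl9* (0.906) and *Ccl2* (0.901), all chemokines, and *Apoe* most like the complement genes *C1qc* (0.933), *C1qa* (0.926) and *C1qb* (0.912). *Fabp5* was nearest to *Lgals3* (0.854), *Ccl6* (0.804) and *Spp1* (0.801), the last of which named the state in which it was highest. *Gpnmb* had *Syngr1* (0.918), *Fnip2* (0.785) and *Rgl1* (0.737), and *Pltp* had *Fcgrt* (0.856), *Dapk1* (0.821) and *Igfbp4* (0.820). *Olr1* had *Sgms2* (0.806), *Gpr84* (0.790) and *Rhoa* (0.775), and *Nr1h3* had *Rgl1* (0.768), *Pdpn* (0.756) and *Arg1* (0.748). *Fabp4* (*Emp1* 0.724, *F7* 0.722 and *Ap2m1* 0.717) and *Pparg* (*Ap2m1* 0.757, *Tbcb* 0.718 and *Fabp4* 0.702) had few UMIs in most groups. Among the members themselves, r was 0.76 between *Lpl* and *Fabp5*, 0.71 between *Apoe* and *Pltp* and -0.05 between *Fabp5* and *Pltp*.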

How the data were processed

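The deposited tables hold raw UMI counts, 1 value for each gene in each cell. Per the labels, the authors made the 3 libraries with the 10x Genomics v2 3′ kit and aligned and counted reads with Cell Ranger 3.0.2 against GRCm38/mm10, and by their methods they dropped cells below 200 genes or above 10% mitochondrial UMIs. Total UMIs were 1865221, 10542346 and 5246731. Seurat 5.3.0 in R 4.3.3 clustered log-normalized cells of all libraries together, with no correction between libraries (2000 variable genes, 30 components, or 20 where monocytes/Mφs were clustered alone, 20 neighbours, resolution 0.8, seed 0). Clusters were named where at least 3 markers were in 10% of cells and 2-fold above other cells (pseudocount 10 CPM), and a name was withdrawn where leading genes or low UMI counts went against it. Cluster 8 lost its name in this way. The 75 lipid genes measured were left out of variable genes and markers.

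UMIs were summed per group of at least 20 cells and library and compared as CPM with Python 3.11.15, numpy 2.4.6, scipy 1.17.1 and pandas 2.3.3, figures with matplotlib 3.10.9, and doublets (16 calls, kept) with Scrublet in scanpy 1.11.5. The ratios were tried on simulated Poisson counts with known folds. These held no variation between cells, mice or libraries, so only counting error was checked. A size of 2-fold among genes of at least 50 CPM was used for counts, and no gene was called changed by a test. Genes named are the 9 members, genes of the lipid lists past 2-fold, and the 3 genes most like each member. The values of 1 gene of the lists are not reported here. Gene positions are from GENCODE M21 on GRCm38. The members, lists and sizes were chosen with earlier results of these data known. Alternatives were a stricter cell filter, resolutions 0.5 and 1.2, fewer components, 3000 variable genes, lipid genes kept, seed 1, doublets removed, the mean over cells, thinning to 1500 UMIs, 1.5-fold and 10 CPM. Leaving out state 9 or state 5 was added after the data were seen.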

Additional observations from a re-analysis of the deposited data

Results flagged for a closer look

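*Apoe* and *Fabp5* differed in direction between cell groups in the comparison of 72 h with naïve cells, and the differences were not tested. The *Apoe* ratio of CPM was 2.65 in T cell-like, 1.69 in B cell-like, 1.25 in DC-like and 1.06 in Cx3cr1+ cells, and 0.862 in Cd206+ cells. B cell-like cells were taken here as the level that free RNA can give, and that level was not measured apart from them. T cell-like cells had less *Apoe* than B cell-like cells in each library. The ratios of both may be those of the background. For *Fabp5* it was 6.80 in DC-like cells and 0.642 in Cd206+ cells, beside 7.11 (95% interval 1.38 to 45.8, 5 against 3 UMIs) in B cell-like cells.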

How the results depend on the processing

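No paired analysis was possible because each time point has 1 library. Of 160 counts and shares recomputed over 14 alternatives, 135 kept within 1.5 times the count or within the interval of the share. Of 414 log2 ratios of members, 42 left their counting interval. None of those past 2-fold with at least 50 CPM reversed direction, and only these were checked for a reversal. Members at least 2-fold higher at 72 h than naïve numbered 1, and 2 under the stricter cell filter, resolution 1.2 or thinning to 1500 UMIs, and 3 at 1.5-fold. The share of 24 h *Fabp5* UMIs in Spp1+ cells (72.1%) was 73.5% at resolution 0.5, 42.0% at resolution 1.2, 70.6% with fewer components, 73.3% with lipid genes kept, 72.9% without doublet calls and 66.5% thinned. That of 72 h *Apoe* UMIs in Cd206+ cells (59.8%) was 60.9% under the stricter filter, 60.2% at resolution 0.5, 59.1% at 1.2, 58.7% with fewer components, 61.7% without doublet calls and 62.1% thinned. With 10 CPM in place of 50 CPM, the other lipid genes past 2-fold numbered 10 higher and 8 lower for 24 h over naïve, 4 and 5 for 72 h over 24 h, 2 and 5 for 72 h over naïve and 4 and 9 for Cd206+ over Timp2+ cells, and 3 were lower in Spp1+ than Ly6c+ cells. The cause of these moves was not tested, except that fewer cells were named Spp1+ at resolution 1.2. The naïve class of 140 cells had 1 to 25 UMIs each for *Lpl*, *Fabp4*, *Gpnmb*, *Olr1*, *Pparg* and *Nr1h3*, so their intervals are wide, and no comparison has replicate libraries.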

Other observations

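Arg1+ cells at 72 h, 19 cells and so under the size at which states were compared, carried 120 of the 535 *Lpl* UMIs of that library, and up to 33 *Lpl* UMIs were found in 1 monocyte/Mφ-like cell there. In the naïve library the 2 *Fabp4* UMIs and 5 of the 30 *Lpl* UMIs lay in the 2 cells of state 2. The largest *Fabp5* count of a single cell was 226 UMIs in a 24 h DC-like cell, above the 214 UMIs of the highest Spp1+ cell.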
